A study of Mus musculus with 70 samples.

Results

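Tnf and 9 genes of the NF-kB feedback loop (Nfkbia, Tnfaip3, Nfkbiz, Nfkbie, Nfkb1, Nfkb2, Relb, Rel and Ikbke) were followed through 70 RNA-seq libraries of cells sorted from mouse melanomas. The 10 genes were taken by symbol from each of 4 count tables, in which they were 10 of 55487 named lines. The study asked what ablation of one tumor does to that tumor and to a distant one. C57BL/6 mice of both sexes carried B16F10 tumors, grown from a mouse melanoma cell line, on both flanks, and one flank received sham or partial histotripsy, a focused ultrasound that breaks tissue up mechanically. Tumors of sham-treated mice (control), histotripsy-treated tumors (treated) and the untreated tumors opposite them (abscopal) were dissociated at day 3 or day 7 and sorted into CD45+ leukocytes and CD45- cells.

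The CD45+ libraries numbered 4 control, 6 treated and 7 abscopal at day 3, and 10 control, 3 treated and 4 abscopal at day 7. The CD45- libraries numbered 4, 7 and 7 at day 3 and 11, 3 and 4 at day 7, in the same order. No gene was modified in any group, and the mice differed by labelled treatment and day alone. Groups were not randomized. The labels give neither the sex, age or batch of a mouse nor the flank of a control tumor, and they do not tie libraries to mice. The p-values below therefore measure the spread between libraries, which may be technical.

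NF-kB is a family of transcription factor dimers built from RelA, c-Rel (Rel), RelB and the processed forms of Nfkb1 and Nfkb2. Inhibitors of the IkB family hold the dimers inactive until a signal such as tumor necrosis factor, the product of Tnf, has them degraded. The dimers then switch on inflammatory genes together with their own inhibitors and precursors, so that messages such as Nfkbia rise within a short time of a stimulus and damp it again. In tumors, myeloid cells are a main source of Tnf.

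The 10 genes are protein coding and lie apart in the mouse genome (GENCODE vM21, GRCm38), except that Tnf and Nfkbie share chromosome 17. Tnf is at chr17:35199381-35202007 and Nfkbie at chr17:45555703-45563169. The other inhibitors are at chr12:55489410-55492647 (Nfkbia), chr10:19000910-19015657 (Tnfaip3) and chr16:55811375-55838899 (Nfkbiz). The subunit genes are at chr3:135584655-135691547 (Nfkb1), chr19:46304320-46312385 (Nfkb2), chr7:19606217-19629438 (Relb) and chr11:23736847-23770970 (Rel), and the kinase gene Ikbke is at chr1:131254343-131279606. Nfkbie and Nfkb2 are on the plus strand and the others on the minus strand. Nfkb1, Nfkb2 and Ikbke overlap other annotated genes, and the strand setting of the authors' counting is not stated, so their counts are less certain than those of the other 7.

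Promoter sequence is shown for the 3 genes of the loop that rose in treated tumors and have a RefSeq promoter, and for Tnf, so that called members can be read beside the ligand gene. RefSeq (GRCm38.p6) held promoters for 7 of the 10 genes, and the 250 bases before each start were searched on both strands for the 10-letter kappaB consensus, the sequence NF-kB dimers bind. A match was found for 5 of the 7 genes (Nfkbia, Tnfaip3, Nfkbie, Nfkb2 and Rel), against 2225 of 27025 genes (8.23%) with a promoter in the table and 2382 of 32851 promoters (7.25%). In the lines below, written from 5′ to 3′ on the gene's strand, capitals mark a match. The windows are chr12:55492648-55492897 (minus strand), chr17:45555450-45555699 (plus strand), chr17:35202008-35202257 (minus strand) and chr1:131279564-131279813 (minus strand).
Nfkbia: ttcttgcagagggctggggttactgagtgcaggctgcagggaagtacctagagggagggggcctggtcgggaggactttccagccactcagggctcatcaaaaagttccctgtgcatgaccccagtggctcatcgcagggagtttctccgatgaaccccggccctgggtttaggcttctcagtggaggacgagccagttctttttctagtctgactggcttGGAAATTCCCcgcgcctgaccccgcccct
Nfkbie: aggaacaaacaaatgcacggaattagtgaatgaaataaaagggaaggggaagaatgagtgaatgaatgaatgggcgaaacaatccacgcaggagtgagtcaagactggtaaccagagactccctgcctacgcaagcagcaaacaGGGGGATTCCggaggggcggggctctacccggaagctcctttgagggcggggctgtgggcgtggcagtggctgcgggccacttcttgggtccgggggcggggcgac
Tnf: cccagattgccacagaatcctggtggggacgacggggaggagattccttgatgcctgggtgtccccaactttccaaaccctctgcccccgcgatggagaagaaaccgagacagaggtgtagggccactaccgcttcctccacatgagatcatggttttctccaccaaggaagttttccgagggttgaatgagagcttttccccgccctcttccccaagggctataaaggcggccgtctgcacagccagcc
Ikbke: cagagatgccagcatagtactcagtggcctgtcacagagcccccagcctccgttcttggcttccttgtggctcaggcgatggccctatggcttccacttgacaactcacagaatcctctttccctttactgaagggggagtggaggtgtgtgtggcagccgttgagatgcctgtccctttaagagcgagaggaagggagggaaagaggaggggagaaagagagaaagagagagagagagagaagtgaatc
The Nfkbia match, GGAAATTCCC, began 29 bases before the start and the Nfkbie match, GGGGGATTCC, 106 bases before it. Tnfaip3 held GGGACACCCC at 125 bases and GGAAATCCCC at 12 bases before a start. Rel held the overlapping GGGAAATCCC and GGAAATCCCC at 92 and 91 bases, and the 3 starts of Nfkb2 held 5 matches in all, 2 of them overlapping. Tnf and Ikbke held none in this window, which says only that these letters are absent from it.

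Libraries held 887798 to 3820705 counts each, and the library preparation tags the 3′ end of a message, so that counts do not grow with gene length. Levels are given as CPM, counts per 1000000 counts of a library, scaled by edgeR's trimmed mean of M values. The sort matched its labels, since Ptprc, the gene of CD45, had 929 to 2916 counts in CD45+ and 0 to 3 in CD45- libraries, and Pmel, a melanoma gene, had 3 to 474 and 2797 to 13012. The CD45+ libraries were mixtures of leukocytes, in which fewer cells of a type and less RNA per cell cannot be told apart. At day 3, treated replicate 3 of the CD45+ cells stood apart by its neutrophil markers. The numbers of genes called with treated tumors of that day are given with and without it. Abscopal replicates 1 and 4 of the same day had the highest melanoma marker sums of their group (7 of 7 markers detected), at 1180.0 and 2235 CPM, against 91.9 to 296 CPM in the other 5.

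Tnf was a message of the leukocyte fraction. In the control tumors all 10 genes were higher in CD45+ than in CD45- cells at both days (10 of 10 called, against 36.2% of all genes called higher, and 67.3% in either direction, at day 3, and 41.0% and 80.9% at day 7), and no CD45+ value overlapped a CD45- one in the controls of a day. Of all genes, 25.5% at day 3 and 21.2% at day 7 lay wholly higher in CD45+ controls (64.7% and 49.8% in either direction). Tnf had 0 to 4 counts in each CD45- library, and 0 in 21 of 36. At day 3 the CD45- controls held 2 Tnf counts together, which puts the level in CD45+ controls at 4351 times that in CD45- controls (95% counting interval 1204 to 35927). At day 7 they held 4 counts, a ratio of 6720 (2625 to 24664). These intervals cover counting error only.

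The other 9 genes were detected in both fractions. Nfkbia, which encodes the main cytoplasmic inhibitor IkB-alpha, was at 8898 ± 1369 CPM (SD, n = 4) in CD45+ and 224 ± 105 CPM (SD, n = 4) in CD45- controls at day 3. That is a log2 difference of 5.65 ± 0.32 (SE, edgeR adjusted p = 4.87e-10). The widest log2 difference among the 9 was that of Tnfaip3, 7.86 at day 3 and 7.26 at day 7, and the narrowest that of Ikbke, 2.12 and 2.59. The 4 subunit genes lay between, at 3.19 (Nfkb2) to 4.61 (Rel) at day 3. The plot of levels by fraction shows the gap for each gene.

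**Figure D1:**
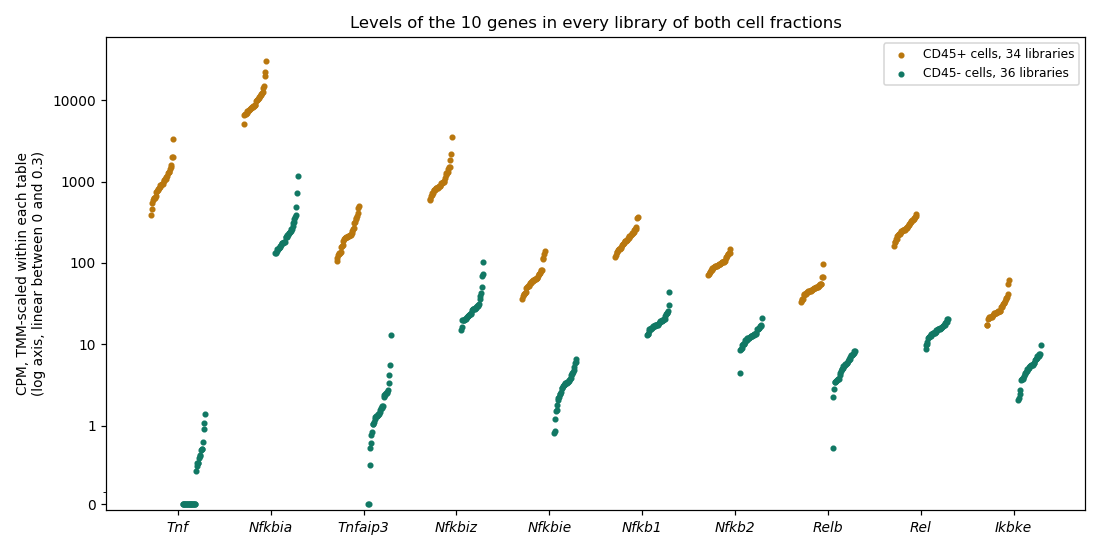
Levels of Tnf and the 9 feedback genes in all 34 CD45+ and 36 CD45- libraries, in CPM scaled within each table, on a log axis that is linear near 0, with 1 point a library sorted by level. For every gene the CD45+ points lie above all CD45- points, and Tnf is at or near 0 in CD45- cells.

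Among CD45+ controls at day 3, Nfkbia was the most abundant of the 10 genes. Tnf followed at 934 ± 209 CPM (SD, n = 4) and Nfkbiz at 830.0 ± 111 CPM (SD, n = 4), with overlapping ranges. Rel (249 ± 83.6 CPM), Tnfaip3 (225 ± 29.8 CPM) and Nfkb1 (183 ± 53.5 CPM) came next and overlapped one another. Nfkb2 was at 89.7 ± 6.80 CPM (SD, n = 4), above Nfkbie (49.5 ± 12.8 CPM) and Relb (43.4 ± 5.46 CPM), which overlapped. Ikbke was lowest, at 19.0 ± 2.04 CPM (SD, n = 4). By mean level over all CD45+ libraries Nfkbia ranked 5 among all lines of the table, and took 0.507% to 2.31% of a library's counts. Nfkbiz ranked 82 and Tnf 85. How well 3′ tagging captures each message was not measured.

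At day 3, leukocytes of treated tumors held more Nfkbia, Nfkbiz, Nfkbie and Ikbke message than those of control tumors, at 2.01 to 2.26 times the control level. All 10 genes had a positive log2 fold change, with a median of 0.78 against -0.01 over all 10264 genes tested. These 4 of 10 genes passed the test, where 6.21% of all genes were called higher and 7.79% in either direction. Tnf, Tnfaip3 and the 4 subunit genes did not pass. For Nfkbia, Nfkbiz, Nfkb2 and Ikbke, all 6 treated libraries lay above all 4 controls, which 4.38% of all genes did. Treated and abscopal tumors are each compared with the same controls below, so these comparisons are not independent.

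The inhibitor Nfkbia was at 7492, 9783, 7989.6 and 10326 CPM in the controls. In treated tumors its lowest, median and highest levels were 10589.7, 16446 and 30176 CPM. Each treated library exceeded each control, the lowest treated by little, and the log2 fold change was 1.01 ± 0.26 (SE, 2.01-fold, edgeR adjusted p = 0.0210). The call was lost without control replicate 1 (adjusted p = 0.0585) or control replicate 3 (adjusted p = 0.0799), and in a fit of the 2 groups alone (adjusted p = 0.0728).

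Nfkbiz, which encodes the nuclear inhibitor-like IkB-zeta that is needed for a subset of inflammatory genes, was at 836, 691, 830.3 and 962 CPM in controls. Its lowest, median and highest levels in treated tumors were 1006, 1685 and 3579.9 CPM. The groups did not overlap, and the log2 fold change was 1.18 ± 0.27 (SE, 2.26-fold, edgeR adjusted p = 0.0101).

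Nfkbie, the gene of IkB-epsilon, was at 64.0, 56.1, 36.4 and 41.4 CPM in controls and at a lowest, median and highest level of 54.2, 114 and 142 CPM in treated tumors. Treated replicate 5 fell inside the control range and the other 5 lay above it. The log2 fold change was 1.08 ± 0.25 (SE, 2.11-fold, edgeR adjusted p = 0.0104), and the call was lost without control replicate 3 (adjusted p = 0.0542).

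Tnfaip3 encodes A20, a ubiquitin-editing enzyme that shuts the signal off upstream of the IkB kinases. It was at 203, 207, 222 and 268 CPM in controls, and at 127, 285 and 497 CPM (lowest, median and highest) in treated tumors. Of the treated libraries 2 lay below every control, 1 among them and 3 above them, and the log2 fold change of 0.41 ± 0.33 (SE) did not pass (edgeR adjusted p = 0.489). The treated libraries of Tnfaip3 thus lay on both sides of the controls, unlike those of the other inhibitors.

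Ikbke, the gene of the inducible kinase IKK-epsilon, had the smallest adjusted p of the 10. Controls were at 17.4, 20.9, 17.0 and 20.5 CPM and treated tumors at 25.6, 39.9 and 62.2 CPM (lowest, median and highest). No value overlapped, and the log2 fold change was 1.17 ± 0.21 (SE, 2.25-fold, edgeR adjusted p = 0.00251). Its level is low, and it passed under every alternative and left-out library tried for this comparison.

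Tnf itself was at 1053, 672, 869 and 1144 CPM in controls and 844, 1793 and 3356 CPM (lowest, median and highest) in treated tumors. Of the 6 treated libraries 4 lay above all controls and 2 among them. The log2 fold change of 0.95 ± 0.32 (SE) missed the threshold (edgeR adjusted p = 0.0717). It passed without treated replicate 1 (adjusted p = 0.0409) or treated replicate 5 (adjusted p = 0.0225), with DESeq2 and with no filter on low counts.

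The subunit genes had log2 fold changes of 0.42 (Nfkb2) to 0.61 (Nfkb1), and none passed. Nfkb1, the gene of p105 and p50, was at 226, 232, 127 and 149 CPM in controls and 214 to 364 CPM in treated tumors (edgeR adjusted p = 0.0777). Nfkb2, the gene of p100 and p52, was at 91.5, 81.1, 97.5 and 88.8 CPM in controls and 101 to 148 CPM in treated tumors, without overlap (edgeR adjusted p = 0.0675). Rel was at 338, 301, 161 and 197 CPM in controls and 291 to 404 CPM in treated tumors (edgeR adjusted p = 0.118), and Relb at 48.5, 36.2, 42.3 and 46.7 CPM in controls and 34.9 to 98.3 CPM in treated tumors (edgeR adjusted p = 0.223). Control replicates 1 and 2 were above replicates 3 and 4 for Rel, Nfkb1 and Nfkbie alike, and the treated range of Rel overlapped its upper 2 controls. DESeq2 called Nfkb1 and Nfkb2 as well as Tnf, 7 genes in all (8.01% of all genes were called higher).

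**Figure D2:**
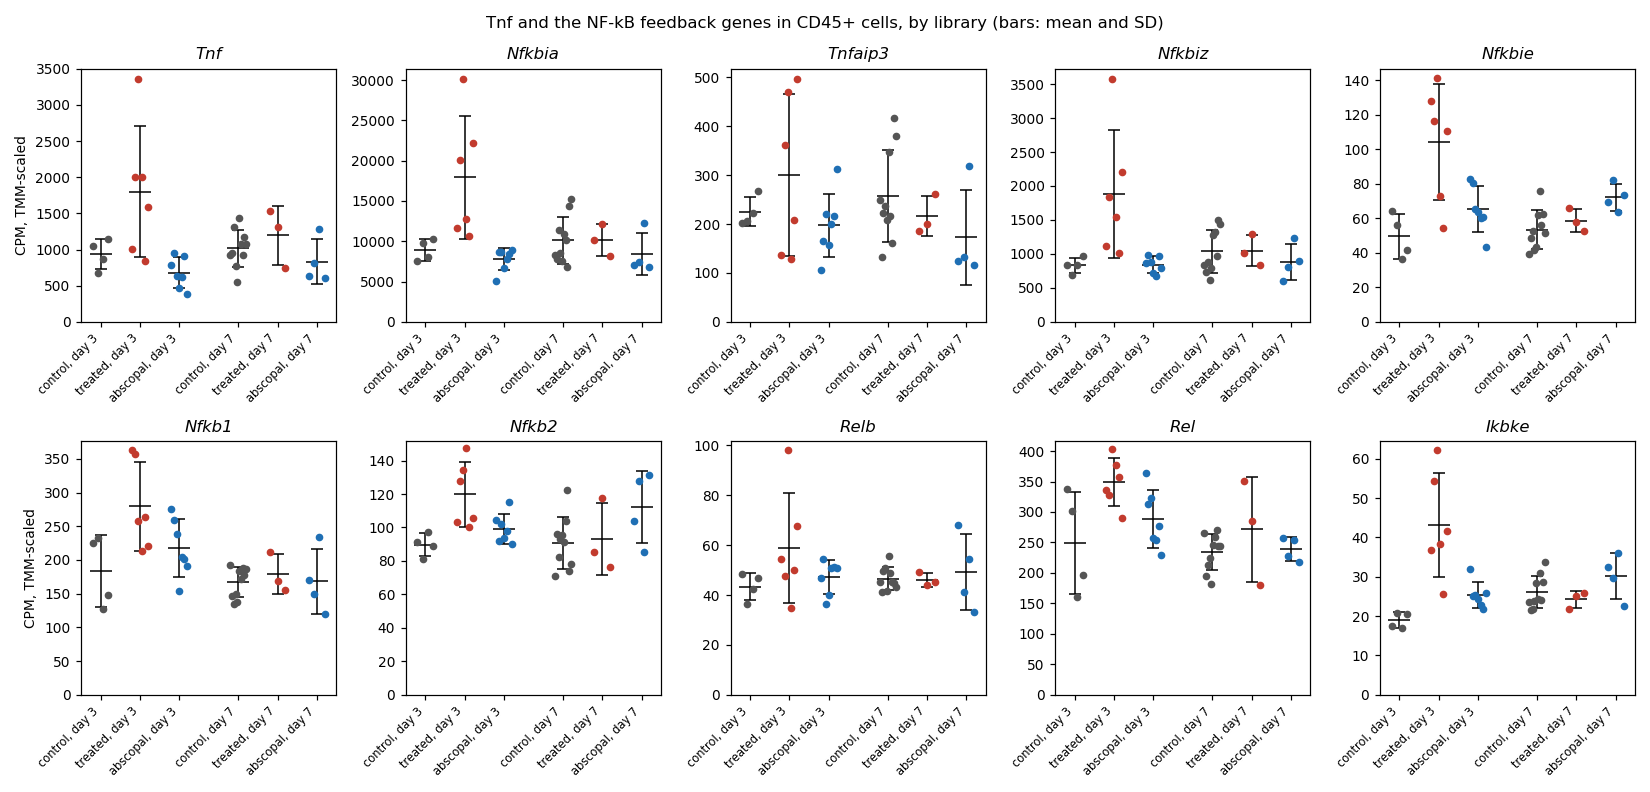
CPM of each of the 10 genes in every CD45+ library, by tumor group and day (linear axes from 0, 1 point a library, bars for mean and SD). At day 3 the treated libraries reach above the controls for all 10 genes, and at day 7 the 3 groups overlap.

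Against the abscopal tumors of the same day, 4 of 10 genes passed, all higher in treated tumors (4.87% of all genes were called higher and 5.44% in either direction). These were Tnf, Nfkbia, Nfkbiz and Ikbke. All 10 log2 fold changes were positive, with a median of 0.64 against -0.03 over all genes. For Nfkbia and Nfkbiz all 6 treated libraries lay above all 7 abscopal ones, as 1.08% of all genes did.

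Tnf was at 388, 632 and 948 CPM (lowest, median and highest) in abscopal tumors. Of the 6 treated libraries 5 exceeded every abscopal one, and the log2 fold change was 1.41 ± 0.27 (SE, 2.65-fold, edgeR adjusted p = 0.00330). This call held with each of the 13 libraries left out in turn, with adjusted p between 0.000432 and 0.0105.

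Nfkbia reached 5118, 8389 and 8859 CPM (lowest, median and highest) in abscopal tumors, below every treated library. The log2 fold change was 1.21 ± 0.22 (SE, edgeR adjusted p = 0.00229). Nfkbiz reached 674, 871 and 991 CPM, and its lowest treated value, 1006 CPM, was just above the highest abscopal one. Its log2 fold change was 1.16 ± 0.22 (SE, edgeR adjusted p = 0.00340), and that of Ikbke was 0.77 ± 0.17 (SE, edgeR adjusted p = 0.0102), with 5 of 6 treated libraries above all abscopal ones.

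Nfkbie did not pass against abscopal tumors (log2 fold change 0.67 ± 0.20, SE, edgeR adjusted p = 0.0561), with abscopal levels of 43.2 to 82.9 CPM. It passed without abscopal replicate 1, treated replicate 4 or treated replicate 5, with DESeq2 (adjusted p = 0.0299, with 6.17% of all genes called higher) and with no filter on low counts (adjusted p = 0.00895, with 2.8% called higher). Tnfaip3 (0.60), Nfkb1 (0.36), Nfkb2 (0.27), Relb (0.30) and Rel (0.27) had smaller log2 fold changes that did not pass, except that Tnfaip3 passed with no filter (adjusted p = 0.0239). The subunit genes were thus closer between the 2 tumors of treated mice than the inhibitors Nfkbia and Nfkbiz were. Their differences from each other were not tested.

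**Figure D3:**
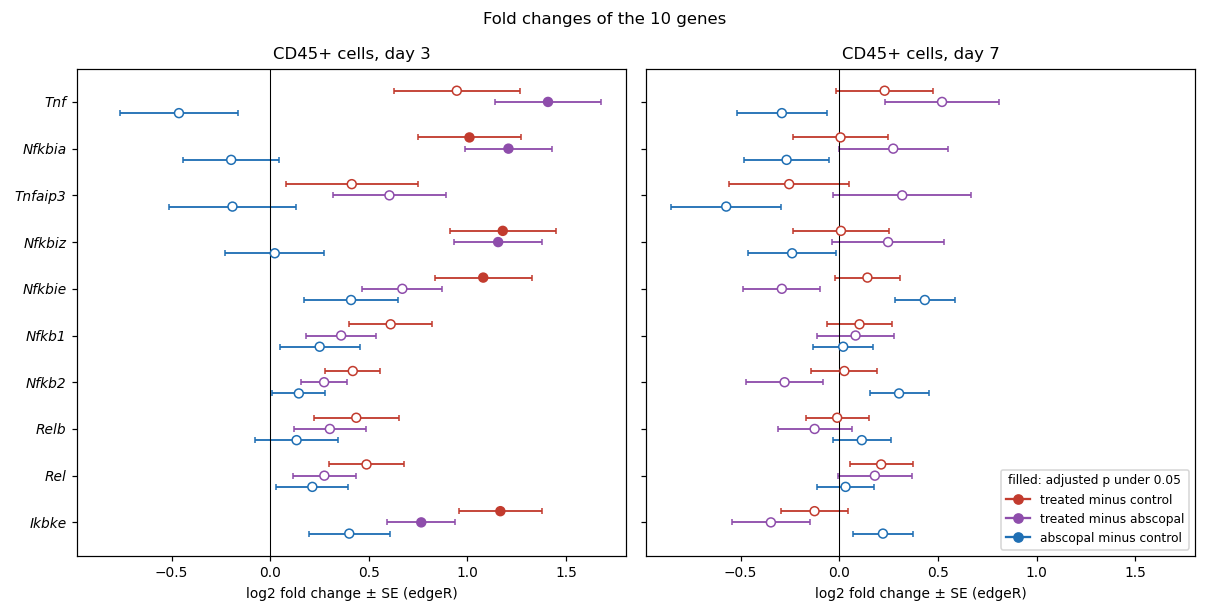
Log2 fold changes (points, filled where called, with bars of 1 SE) of the 10 genes in CD45+ cells from edgeR, for treated against control, treated against abscopal and abscopal against control tumors at day 3 and day 7. At day 3 the treated comparisons are positive for all 10 genes, and at day 7 no point is filled.

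Abscopal tumors at day 3 did not differ detectably from controls in these genes. Of the 10 genes 0 passed with edgeR and 0 with DESeq2, and 0 had an unadjusted p under 0.05 with either tool. Over all genes edgeR called 0.0% and DESeq2 0.117%. Log2 fold changes ran from -0.46 ± 0.30 (SE) for Tnf to 0.41 ± 0.24 for Nfkbie. Ikbke was at 21.8, 25.0 and 32.0 CPM (lowest, median and highest) in abscopal tumors, and all 7 lay above the highest control, 20.9 CPM. Its log2 fold change was 0.40 ± 0.21 (SE, edgeR adjusted p = 0.662), and 0.779% of all genes had abscopal libraries wholly above the controls. The highest Ikbke value, 32.0 CPM, was in abscopal replicate 1, one of the 2 libraries with the higher melanoma marker sums. In CD45- abscopal libraries of the same day Ikbke was at 2.18 to 7.21 CPM. The part of melanoma RNA in the CD45+ values was not tested.

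Neutrophil markers were also high in several treated libraries of day 3. The 7 markers, all 7 detected, summed to 337 to 2471 CPM in controls, 782 to 2611 CPM in abscopal tumors and 1242 to 8679 CPM in 5 treated libraries. Treated replicate 3 reached 34976 CPM and also had the highest level of Nfkbia, Nfkbiz, Nfkbie, Tnf, Relb, Rel and Ikbke. Ordered by the neutrophil sum the treated replicates ran 3, 2, 6, 4, 1 and 5, the same order as Ikbke, and both Nfkbia and Nfkbiz ran 3, 6, 2, 4, 1 and 5. Most abundant among the markers was S100a8, a calcium-binding protein of neutrophils.

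Other marker sums differed too. T cell markers (7 of 7 detected) summed to 1193 to 1527 CPM in controls, 1089 to 1393 CPM in abscopal and 379 to 1058 CPM in treated tumors, without overlap between treated and the other groups. Monocyte and macrophage markers (8 of 8) overlapped, at 3157 to 3697 CPM in controls and 1883 to 4543 CPM in treated tumors. Immediate early genes (9 of 9), which rise during dissociation as well as in stimulated cells, summed to 3612 to 4325, 3344 to 4906 and 4068 to 8174 CPM in control, abscopal and treated tumors. The part of these cells and genes in the results was not tested.

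Without treated replicate 3 the calls stayed. Against controls the log2 fold changes were 0.79 (adjusted p = 0.0388) for Nfkbia, 0.88 (adjusted p = 0.0129) for Nfkbiz, 0.97 (adjusted p = 0.0211) for Nfkbie and 1.03 (adjusted p = 0.00458) for Ikbke, by edgeR, with 4 genes called as before. Tnf was at 0.67 (adjusted p = 0.173). Against abscopal tumors they were 1.13 (adjusted p = 0.00952) for Tnf, 0.99 (adjusted p = 0.00471) for Nfkbia, 0.86 (adjusted p = 0.00628) for Nfkbiz and 0.63 (adjusted p = 0.0416) for Ikbke, again the 4 genes called. Each of these log2 fold changes was smaller than with the library. Of all 10219 genes tested without it, 445 were called higher against controls and 263 against abscopal tumors (564 and 275 in either direction).

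**Figure D4:**
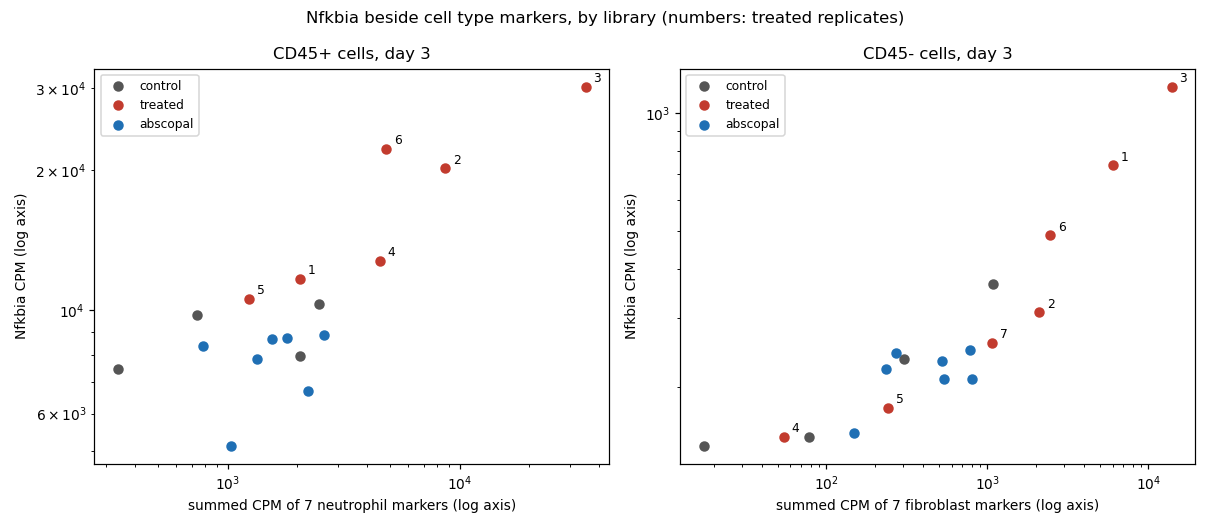
Nfkbia level of each day 3 CD45+ and CD45- library against a marker sum of the same library, both in CPM on log axes (neutrophil markers for CD45+ cells, fibroblast markers for CD45- cells), 1 point a library, colours for control, treated and abscopal tumors and numbers for treated replicates. In both panels the treated libraries with the highest marker sums have the highest Nfkbia.

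By day 7 no difference between tumor groups was detectable in these genes in CD45+ cells. Of the 10 genes 0 passed in any of the 3 comparisons with edgeR or DESeq2, and either tool called 0.0% of all genes in each. At an unadjusted p under 0.05, edgeR gave 0 genes for treated against control, 0 for treated against abscopal and 1 (Nfkbie) for abscopal against control tumors. The SE of the treated-against-control log2 fold changes was 0.16 (Relb, Rel) to 0.30 (Tnfaip3) at day 7 and 0.14 (Nfkb2) to 0.33 (Tnfaip3) at day 3.

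Nfkbia was at 6849, 9352 and 15244 CPM (lowest, median and highest) in controls, 10130.5, 12168 and 8149.8 CPM in treated and 7100.4, 7445, 12288 and 6748 CPM in abscopal tumors. Treated and control levels overlapped throughout, with a log2 fold change of 0.01 ± 0.24 (SE, edgeR adjusted p = 0.9999). Tnf was at 552, 1011 and 1435 CPM in controls, 1530.0, 1316 and 744 CPM in treated and 638, 814, 1277 and 604 CPM in abscopal tumors. Its log2 fold changes were 0.23 ± 0.25 (SE) against controls and 0.52 ± 0.29 against abscopal tumors, neither called.

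Nfkbiz was at 622, 930.2 and 1505 CPM in controls, 1009, 1289 and 838 CPM in treated and 597, 801, 1227 and 895 CPM in abscopal tumors. Ikbke was at 21.6, 24.3 and 33.7 CPM in controls, 21.8, 25.2 and 25.8 CPM in treated and 32.5, 29.8, 36.1 and 22.5 CPM in abscopal tumors. Both overlapped between all 3 groups. Over the 10 genes the log2 fold change of treated against control tumors ran from -0.25 (Tnfaip3) to 0.23 (Tnf). Nfkbie in abscopal tumors, at 69.6, 82.4, 63.6 and 73.3 CPM against 39.3, 52.0 and 75.9 CPM in controls, had a log2 fold change of 0.43 ± 0.15 (SE, edgeR adjusted p = 0.542). Abscopal replicate 3 was the highest of its group for Tnf, Nfkbia, Tnfaip3, Nfkbiz, Nfkb1 and Ikbke.

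Whether the treated effect differed between days was tested as an interaction in one fit of all CD45+ libraries. Each of the 10 genes had a smaller treated-against-control difference at day 7 than at day 3, with a median change of -0.67 on the log2 scale against 0.01 over all 11251 genes. Ikbke passed, at -1.27 ± 0.27 (SE, edgeR adjusted p = 0.00783), 1 of 10 genes where 2.42% of all genes were called lower and 2.68% in either direction. Nfkbie (-0.92, adjusted p = 0.0983), Nfkbiz (-1.15, adjusted p = 0.103), Nfkbia (-0.98, adjusted p = 0.151) and Tnf (-0.70, adjusted p = 0.440) did not pass in edgeR. With no filter on low counts Nfkbiz passed too (adjusted p = 0.00668, with 1.61% of all genes called lower).

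Controls of the 2 days also lay apart for Ikbke. Control levels of Ikbke were 17.4, 20.9, 17.0 and 20.5 CPM at day 3 and 21.6 to 33.7 CPM at day 7, all 10 above all 4, as 0.516% of genes were (log2 difference 0.38 ± 0.17, SE, edgeR adjusted p = 0.957, with 0.00889% of genes called). The interaction was -1.14 (adjusted p = 0.0153) without treated replicate 3 of day 3, and missed the threshold without treated replicate 1 of day 7 (-1.18, adjusted p = 0.0707). The tables of day 3 and day 7 are separate deposits, and a batch shared by the libraries of a day cannot be told apart from the day.

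In CD45- cells, which carried the melanoma markers, 8 of the 10 genes were abundant enough to test in each day's table, and Tnf and Tnfaip3 were not. None of the 8 passed in any of the 6 comparisons between tumor groups with edgeR or DESeq2. At day 3 edgeR called 0.0916%, 0.147% and 0.0% of all genes for treated against control, treated against abscopal and abscopal against control tumors, and at day 7 0.0%, 0.0% and 0.291%. The shares called by DESeq2 were 0.449%, 1.26% and 0.119%, and 0.0%, 0.0% and 0.1%. At an unadjusted p under 0.05 edgeR gave 1, 4 and 1 of the 8 genes at day 3 and 0, 0 and 0 at day 7. DESeq2 gave 1, 3 and 1, and 1, 0 and 0. The interaction with day called 0 of the 9 genes testable in the joined CD45- tables with either tool. Over all genes edgeR called 0.0% for treated and 0.00866% for abscopal against control, and DESeq2 0.113% and 0.052%. With edgeR 0 and 1 (Rel) had an unadjusted p under 0.05.

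Nfkbia came nearest. Controls at day 3 were at 236, 367, 149 and 142 CPM, treated tumors at 149.5, 310.2 and 1168 CPM and abscopal tumors at 153, 222 and 249 CPM (lowest, median and highest). Of the 7 treated libraries 3 exceeded every control, and the others lay within the control range. The log2 fold change was 1.07 ± 0.43 (SE, edgeR adjusted p = 0.364) against controls and 1.10 ± 0.35 (adjusted p = 0.151) against abscopal tumors. With no filter on low counts both passed (adjusted p = 0.00755 and 0.000434), as did Nfkbiz against abscopal tumors (adjusted p = 0.00896). That setting also called more of all genes, 0.985% higher against controls and 1.28% against abscopal tumors.

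Nfkbiz was similar, at 29.2, 35.7, 23.6 and 20.3 CPM in controls and 20.1, 29.3 and 103 CPM in treated tumors, with log2 fold changes of 0.74 ± 0.37 (SE, edgeR adjusted p = 0.4931) and 0.85 ± 0.31 (adjusted p = 0.206). The same 3 libraries, replicates 3, 1 and 6, were the highest for both genes. Nfkbie had negative log2 fold changes for treated tumors of day 3, from 3 to 8 counts in a treated library. It was at 3.17, 5.31, 0.800 and 4.14 CPM in controls, 1.53 to 3.75 CPM in treated and 3.44 to 6.59 CPM in abscopal tumors (log2 fold change against abscopal -0.81 ± 0.30, SE, edgeR adjusted p = 0.224). Its other log2 fold changes in CD45- cells were positive, at 0.34 for abscopal against control tumors of day 3 and 0.15 to 0.40 at day 7. Rel was at 15.2, 12.6, 13.2 and 10.8 CPM in controls and 15.2 to 20.7 CPM in abscopal tumors (log2 fold change 0.41 ± 0.15, SE, edgeR adjusted p = 0.910).

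Fibroblast markers (7 of 7 detected, Col1a1 the most abundant) moved with Nfkbia in this fraction. Their sum in treated replicates 1 to 7 was 5988, 2097, 13950.5, 54.5, 242, 2457 and 1070.2 CPM, and Nfkbia was at 735, 310.2, 1168, 149.5, 177, 487 and 259.5 CPM in the same libraries, so that both ran in the order 3, 1, 6, 2, 7, 5 and 4. In controls the fibroblast sum was 304, 1080.3, 78.0 and 17.4 CPM, and the 2 controls with the higher sums had the higher Nfkbia. Without treated replicate 3 the log2 fold change of Nfkbia was 0.65 (adjusted p = 0.617) against controls and 0.68 (adjusted p = 0.381) against abscopal tumors, by edgeR, and that of Nfkbiz was 0.39 (adjusted p = 0.769) and 0.49 (adjusted p = 0.486). Immediate early genes summed to 885 to 1267 CPM in controls, 943 to 1865 CPM in abscopal and 1235 to 2314 CPM in treated tumors. Their part and that of fibroblasts were not tested.

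Leukocyte markers were low in CD45- cells. The 5 pan-leukocyte markers summed to at most 1.53 CPM in CD45- treated libraries of day 3. The 7 neutrophil markers summed to 0.279 to 6.62 CPM, with 5 detected and Retnlg and Ly6g at 0 in all 7 libraries, against at most 2.90 CPM in controls. The 8 monocyte and macrophage markers summed to 5.40 to 12.5 CPM in treated and 2.80 to 6.35 CPM in control libraries, with 5 detected in treated ones, Cd68 the most abundant, and Adgre1, Ly6c2 and Ccr2 at 0. Abscopal libraries overlapped the treated ones, at 4.48 to 12.0 CPM (median 8.48 against 8.37 CPM), while their Nfkbia was at 153 to 249 CPM. Treated replicates 1 and 3 had the highest sums of both lists and the highest Nfkbia, and the part of these cells was not tested.

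Tnf had 1 or 2 counts in 6 of the 7 CD45- treated libraries of day 3, 0 in all 7 abscopal ones, and 1, 0, 1 and 0 in the controls. All are below the 3 counts that a count of 0 allows in a library, so that no difference is read from them. At day 7 Tnf had 1 to 4 counts in treated, 0 to 1 in abscopal and 0 to 2 in control libraries. All 3 treated libraries lay above all 4 abscopal ones in CPM, as 2.83% of the genes tested did. These counts are also near that floor, and the difference was not tested. At day 7 the log2 fold change of Nfkbiz was 0.53 ± 0.28 (SE, edgeR adjusted p = 0.844), from treated levels of 23.7, 14.8 and 68.7 CPM whose highest library also had the highest fibroblast sum (3994 CPM against 215 and 90.0 CPM), and it turned negative without that library.

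Of 82 further genes of the pathway, in 5 lists by role, 77 were abundant enough in CD45+ cells at day 3. Against controls 22 of the 77 were called, all higher in treated tumors, where 6.21% of all genes were called higher and 7.79% in either direction. The median over the 77 was 0.34 on the log2 scale, against -0.01 over all genes. By role these were 0 of 8 TNF family ligands and shedding enzymes, 2 of 8 receptors, 1 of 26 adaptors, kinases and ligases, 7 of 16 in the list of Rela and further inhibitors, and 12 of 19 target genes outside the loop. Against abscopal tumors 23 were called, all higher, as 0, 4, 1, 4 and 14 in the same order (4.87% of all genes were called higher and 5.44% in either direction), and without treated replicate 3 the count was 14 (19 against controls). Without that replicate 263 of all 10219 genes were called higher against abscopal tumors and 445 against controls. Target genes held the most calls in both comparisons. The lists were chosen with earlier results of these data known, so these counts are a description.

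Of the 5 genes with the smallest p against controls, 4 were target genes. Marcksl1, an actin-regulating protein, was at 99.3 to 408 CPM in treated and 35.7 to 56.4 CPM in control tumors (log2 fold change 2.34 ± 0.34 SE, edgeR adjusted p = 0.000871). Tnfaip2, a TNF-induced gene, was at 391 to 1847 and 203 to 230.3 CPM (2.20 ± 0.34 SE, edgeR adjusted p = 0.00110). Ier3, an early response gene with a role in cell survival, was at 1440.1 to 3881 and 475 to 1094 CPM (1.71 ± 0.27 SE, edgeR adjusted p = 0.00119). In all 3 the treated libraries lay wholly above the controls.

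N4bp1, an inhibitor of NF-kB signaling, was at 126 to 398 CPM in treated and 65.8 to 93.3 CPM in control tumors (1.68 ± 0.27 SE, edgeR adjusted p = 0.00119), and the chemerin-binding receptor gene Ccrl2 at 492 to 1548 and 342 to 392 CPM (1.47 ± 0.28 SE, edgeR adjusted p = 0.00399). Against abscopal tumors the leading genes were Marcksl1, Ier3, Tnfaip2, Il1b and Ccrl2. Il1b, the gene of the inflammatory cytokine interleukin-1 beta, was at 3596 to 10663 CPM in treated and 1997 to 3616 CPM in abscopal tumors (1.30 ± 0.21 SE, edgeR adjusted p = 0.00120). In the main edgeR fit 0 of the further genes were called for abscopal against control tumors at day 3, in any comparison of day 7, or in CD45- cells. There 0 to 12 had an unadjusted p under 0.05, and DESeq2 called 0 in each but 1, treated against abscopal CD45- cells of day 3, where it called 1.

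The difference between days was called for 14 of 79 further genes, all lower at day 7, where 2.42% of all genes were called lower and 2.68% in either direction. It was led by N4bp1 (-1.78 ± 0.32 SE, edgeR adjusted p = 0.00324), Marcksl1 (-2.44 ± 0.46 SE, edgeR adjusted p = 0.00366), Tnfaip2 (-2.09 ± 0.42 SE, edgeR adjusted p = 0.00611), Ier3 (-2.004 ± 0.42 SE, edgeR adjusted p = 0.00804) and Il1rap, a co-receptor of interleukin-1 (-2.29 ± 0.56 SE, edgeR adjusted p = 0.0203). This count depended on single libraries. It was 3 and 4 without treated replicates 1 and 3 of day 7, 5, 7 and 22 without treated replicates 3, 6 and 5 of day 3, and 9, 7, 6 and 8 without control replicates 1 to 4 of day 3. Scaling by library totals gave 6, and the replicate block 6.

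The 10 genes did not vary as one. Over the 34 CD45+ libraries, with the mean of each group removed, the correlation of log2 CPM between 2 members ran from -0.39 (Tnfaip3 and Nfkb2) to 0.83 (Nfkbia and Tnfaip3), with a median of 0.31 over 45 pairs. Nfkbia and Nfkbiz correlated at 0.79, Tnf and Nfkbiz at 0.75 and Nfkb1 and Rel at 0.67. These points share library, depth and cell mixture, and the values are a description. The highest correlation of Nfkb2 with an inhibitor was 0.18, with Nfkbie.

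Among 8230 genes with a mean of at least 10 CPM, those most like Tnf in the same libraries were Il1rn (0.82), Il1b (0.80), Cflar (0.77), Tnfaip2 (0.77) and Rcan1 (0.77). Il1rn encodes the interleukin-1 receptor antagonist and Cflar an inhibitor of death receptor signaling. Those most like Nfkbia were Clec4e (0.93), Rgcc (0.93), Cxcl1 (0.92), Srgn (0.90) and Card19 (0.90), of which Clec4e encodes the innate receptor Mincle and Cxcl1 a chemokine that draws neutrophils.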

How the data were processed

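The authors sorted CD45+ and CD45- cells, prepared QuantSeq libraries, sequenced single-end reads, trimmed them with Trim Galore 0.5.0, aligned them with STAR 2.6.0 to GRCm38, collapsed unique molecular identifiers and counted with featureCounts. The strand setting of the counting, the annotation release and any filter are not given in the sources used here. The deposited values are raw counts per gene, in 4 tables (fraction by day). An unnamed line in 2 tables equals 100% of the column total and was left out, and 0 columns lacked a sample.

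For each table edgeR 4.0.16 (R 4.3.3) fitted all 3 tumor groups with its quasi-likelihood test, after filterByExpr (minimum count 10, minimum total 15) and TMM scaling, with Benjamini-Hochberg adjustment over all genes and a threshold of 0.05. Day interactions and fractions were fitted on joined tables. Alternatives were DESeq2 1.42.0, library totals, no filter, a replicate block, 2-group fits and each library left out. No library pair of a group agreed within sampling noise. The tests were run on simulated data first. The 10 members, gene lists and marker lists were chosen with earlier results of these data known. Their counts beside the shares over all genes are therefore a description. All members are named. Further pathway genes are named as the 5 called with the smallest p per comparison, and the 5 genes most like Tnf and Nfkbia by correlation, with log2 CPM (prior count 2). Genes named outside this rule are those a result turned on.

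Same-numbered libraries of 2 groups were checked for shared deviations. In no pair of groups did every correlation exceed 0.1, and the main fit holds no block. Between CD45- treated and abscopal libraries of day 3, 4 of 7 did, and each of these was highest with its own number. Treated and abscopal tumors are opposite flanks of treated mice, but equal numbers may not mark the same mouse. The check therefore cannot show that libraries are unpaired.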

Additional observations from a re-analysis of the deposited data

Results flagged for a closer look

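In 10 of 89 gene and group combinations with 4 to 10 libraries, 1 library lay far from the others of its group by Dixon's criterion, where chance gives about 1 in 20. In CD45+ abscopal tumors of day 7, replicate 3 was at 12288 CPM for Nfkbia, against 7445 CPM for the next library, and at 319 CPM for Tnfaip3, against 132 CPM. In CD45+ abscopal tumors of day 3, replicate 1 was at 32.0 CPM for Ikbke, against 26.0 CPM for the next. In CD45- treated tumors of day 3, replicate 3 was at 12.9 CPM for Tnfaip3, replicate 7 at 20.9 CPM for Nfkb2 and replicate 6 at 9.86 CPM for Rel, the last being the lowest of its group. In CD45- abscopal tumors of day 3, replicate 6 was lowest for Nfkbia, at 153 CPM, and highest for Nfkbie, at 6.59 CPM. In CD45- abscopal tumors of day 7, replicate 1 was at 6.84 CPM for Ikbke, and replicate 3 was the only library with a Tnf count, at 0.343 CPM. That was 1 count against 0 in the others, which meets the criterion at any level, so nothing is read from it.

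The difference between treated and control CD45+ cells changed from day 3 to day 7 for Ikbke, by -1.27 on the log2 scale in the interaction test (edgeR adjusted p = 0.00783), with a lower difference at day 7.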

How the results depend on the processing

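Over 20 comparisons, the number of members called kept its side of the threshold and stayed within 1.5 times in 88 of 92 alternatives other than a left-out library and in 294 of 297 with 1 library left out. A chosen set of 88 log2 fold changes kept direction and call in 389 of 404 and 1222 of 1243. This set does not hold every member in every comparison. Small differences could change sign, as that of Nfkbia in CD45- abscopal against control tumors of day 3 did (-0.20 to 0.32 with 1 library left out). In CD45+ cells at day 3, treated against control tumors, 4 genes were called, 7 with DESeq2 (Tnf, Nfkb1 and Nfkb2 added), 3 with the 2 groups alone (Nfkbia lost), 5 with the replicate block (Nfkb1 added), and 2 to 6 with 1 library left out, the lowest without control replicate 3. Over all genes, 361 of 9692 were called higher with the 2 groups alone and 859 of 10264 with the block. Against abscopal tumors 4 were called, 4 with the block, 5 with DESeq2 (Nfkbie added) and 6 with no filter (Nfkbie and Tnfaip3 added). In that comparison the block called 454 of all 10264 genes higher. The replicate block, for numbers that may not mark the same mouse, left the interaction at 1 (101 of all 11251 genes were called lower). With no filter on low counts, the CD45- comparisons of day 3 called 1 gene against controls (Nfkbia, adjusted p = 0.00755) and 2 against abscopal tumors (Nfkbia and Nfkbiz), and the CD45+ interaction called 2 (Ikbke and Nfkbiz) in place of 1. The interaction called 0 to 3 genes with 1 library left out, the lowest without treated replicate 1 of day 7 and the highest without treated replicate 5 of day 3. For these the cause was not tested. The small log2 fold change of Nfkbiz in abscopal against control CD45+ cells at day 3 reversed to -0.076 with library totals and -0.017 with no filter, and ran from -0.056 to 0.10 with 1 library left out. That of Nfkbiz in CD45- cells at day 7, treated against control, ran from -0.30 to 0.90 with 1 library left out. Scaling by library totals moved the median of all genes to -0.22 (treated against control), -0.15 (treated against abscopal) and 0.22 (interaction) in CD45+ cells, and to -0.17 and -0.24 between fractions at day 3 and day 7. Depth limits Tnf and Tnfaip3 in CD45- cells, which were too low to test, and day 7 rests on 3 treated and 4 abscopal libraries.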
